A study of Homo sapiens with 4 samples.

Results

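The genes described here set the gate from G1 to S phase: the CDK inhibitors CDKN2A, CDKN2B, CDKN2C, CDKN2D and CDKN1B, the pocket protein RB1, the D cyclins CCND1 and CCND2, and the kinases CDK4 and CDK6. They were taken as all non-control probes whose gene name equals 1 of these 10 symbols on all 4 arrays. This gave 19 probes, and all 19 passed the filter on dim probes, so that 10 of the 27223 genes tested are members. It was built around CDKN2A, as its ratio was high in both KO groups, and the other genes were added as its pathway. The set was thus selected on the ratios of CDKN2A against Ctrl. These and their difference between the groups are therefore given as a description, without a test.

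The cells are A2780s, an established line from a human epithelial ovarian cancer (EOC). Gene expression was measured on 4 two-colour Agilent 4 × 44K arrays with total RNA from 2 GALNT3 KO clones, made with CRISPR/Cas9 and a repair plasmid under puromycin selection, and from 2 GALNT3/T6 KO clones, made from GALNT3 KO clones with a lentiviral shRNA to GALNT6. On every array the KO clone (Cy5) was hybridized against a mock-transfected A2780s Ctrl clone (Cy3), with no dye swap by the labels. All groups share the parental line and 10% serum medium, each array is 1 clone, transduction goes together, by the labels, with the double KO group, and whether a single Ctrl RNA served all 4 arrays is not stated. The study asked which genes change upon GALNT3 KO and upon GALNT3/T6 KO. Each value below is a log2 ratio of KO over Ctrl after background correction and loess, taken from the brightest probe of the gene. Brightness was the mean of both channels over the 4 arrays, so that the KO signal entered the choice of probe. A gene is called where its adjusted p in limma (Benjamini-Hochberg, over all 27223 genes) is 0.05 or less. As no Ctrl was hybridized against Ctrl, the spread of the Ctrl alone was not measured. The adjusted p measures the spread between clones, together with that of the Ctrl if its RNA differed between arrays. A difference between the groups would then hold a Ctrl difference too. The calls in GALNT3 KO were lost when either GALNT3 KO array was left out. The spread then came from the GALNT3/T6 KO-labelled arrays alone, so this loss cannot show whether a result rests on the array left out.

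The targeted genes were read first. GALNT3 had log2 ratios of 4.80 and 5.08 on the GALNT3/T6 KO-labelled arrays, with the KO channel above Ctrl, which goes against the label. On the GALNT3 KO arrays neither of its channels stood well above background, so nothing is checked there. The group is therefore called by its label throughout. GALNT6 fell in both groups, by 0.42 in GALNT3 KO and by 0.67 on the GALNT3/T6 KO-labelled arrays (adjusted p = 0.0447 and 0.00335, limma). The study reported more GALNT6 protein in its GALNT3 KO clones by Western blot. The values here are RNA from a dim probe, with Ctrl signals of 7.66 to 8.09 in log2 units. The 4 arrays had between 86.9% and 93.8% of spots well above background in a channel, and no spot was saturated. Across genes (not independent of each other) the r of the GALNT3 KO arrays was 0.835 and that of the GALNT3/T6 KO-labelled arrays 0.917, against 0.205 to 0.324 between the groups. Markers of the epithelial and ovarian carcinoma list set the groups apart as well. Of its 12 genes tested, 0 were called in GALNT3 KO and 8 were called higher on the GALNT3/T6 KO-labelled arrays. The summed KO signal over the summed Ctrl signal was 19.7 and 24.8 on the latter, against 1.22 and 1.16 in GALNT3 KO. That sum is weighted to the brightest genes, KRT18 and KRT19. The median log2 ratio of the list was 0.04 and 0.06 in GALNT3 KO and 1.05 and 1.27 on the GALNT3/T6 KO-labelled arrays. The keratin KRT18, a marker of simple epithelia, had log2 ratios of 5.41 and 5.95 there, and its Ctrl signal was also higher on those arrays (13.37 and 12.56 against 10.61 and 10.35 in log2 units). Of the 12 epithelial markers, 11 or 12 were well above background in a channel, but so were all 5 leukocyte markers in every channel, so that this flag does not mark the cells. Of the 9 fibroblast markers, 1 was higher and 1 lower in GALNT3 KO and 4 were higher and 4 lower on the other arrays, and of the 5 leukocyte markers 1 was higher and 1 lower on the latter. Of all genes, 4.69% were called higher and 6.35% lower in GALNT3 KO, and 24.8% and 23.1% on the GALNT3/T6 KO-labelled arrays. The part of these marker shifts in the results below was not tested.

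In G1, cyclin D bound to CDK4 or CDK6 phosphorylates RB1, which then releases E2F factors that switch on S phase genes. The INK4 proteins, encoded by CDKN2A, CDKN2B, CDKN2C and CDKN2D, bind CDK4 and CDK6 and keep cyclin D away from them, while CDKN1B (p27) inhibits the cyclin E and CDK2 complex. CDKN2A also encodes ARF from a separate promoter and reading frame, and ARF binds MDM2 and so stabilizes p53. CDKN2A and CDKN2B lie beside each other and are often deleted or silenced together in tumors, and loss of RB1 function is typically accompanied by high CDKN2A.

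The probes for CDKN2A, CDKN2B, CDK6 and CCND2 carry the results, since these are the genes with the widest shifts and 3 of them have probes that disagree. The opening 30 of the 60 bases of their probes, except for the dimmer CDKN2B probe, are given below, 5′ to 3′, with hg19 coordinates and strand as the array files give them, and capitals mark AATAAA, the polyadenylation signal.
CDKN2A brightest probe, A_23_P43490, chr9:21968039-21968098 (-): ttaaaaatgtcctgccttttaacgtagata
CDKN2A other probe, A_23_P43484, chr9:21967780-21967839 (-): gggttactggcttctcttgagtcacactgc
CDKN2B brightest probe, A_24_P360674, chr9:22004945-22005004 (-): aacataactagtggctctcagttaaaatgt
CDK6 brightest probe, A_24_P166663, chr7:92234443-92234502 (-): ttggtgttgaaatatcactgtccaatgtgt
CDK6 other probe, A_23_P168651, chr7:92252373-92300771 (-): ggctgcatatttgcagaaatgtttcgtaga
CCND2 brightest probe, A_24_P278747, chr12:4414040-4414099 (+): atcgggccattggattttttccattatgtt
CCND2 middle probe, A_23_P139881, chr12:4409331-4409390 (+): aaggtcctacgaaaacggaatAATAAAaag
CCND2 upstream probe, A_24_P270235, chr12:4388019-4388078 (+): cagcagcgggagaagctgtctctgatccgc

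The CDKN2A probes lie 199 bases apart, and the files list transcripts of both p16 and ARF for each of them, so the products cannot be told apart. The CDK6 probes lie 17870 bases apart, and the upstream probe is split over 48399 genomic bases, so that it crosses an intron. The CCND2 probes follow each other at intervals of 21252 and 4649 bases on the plus strand, and the hexamer stands in the middle probe. Of the 41000 probes on the array with a sequence, 4.2% hold AATAAA. Among the 171 pairs of the 19 member probes, the longest run of bases in common was 10, and between a CDKN2A and a CDKN2B probe it was 7. Exon and UTR positions of the hg19 probes were not used here.

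CDKN2A was above Ctrl in every clone. It stood at 2.43 and 2.39 on the GALNT3 KO arrays and at 2.84 and 2.92 on the GALNT3/T6 KO-labelled arrays, so that the arrays of a group were closer to each other than to those of the other group. The mean was 2.41 in GALNT3 KO, or 5.32-fold, and 2.88 on the GALNT3/T6 KO-labelled arrays, or 7.37-fold. In GALNT3 KO only 0.0771% of the genes tested had a higher ratio, and on the GALNT3/T6 KO-labelled arrays 1.62% had. The Ctrl signal was itself well above background, between 13.69 and 14.01 in log2 units, so that the ratio does not start from an undetected gene. The other probe, printed 10 times on each array, gave 2.27 and 2.08 in GALNT3 KO and 2.25 and 2.60 in the other group. The SD between its spots on 1 array was between 0.21 and 0.36. The means of the groups lay 0.47 apart at the brightest probe, 0.25 apart at the other probe, and 0.37 apart at the brightest probe with Agilent's log ratio.

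**Figure D1:**
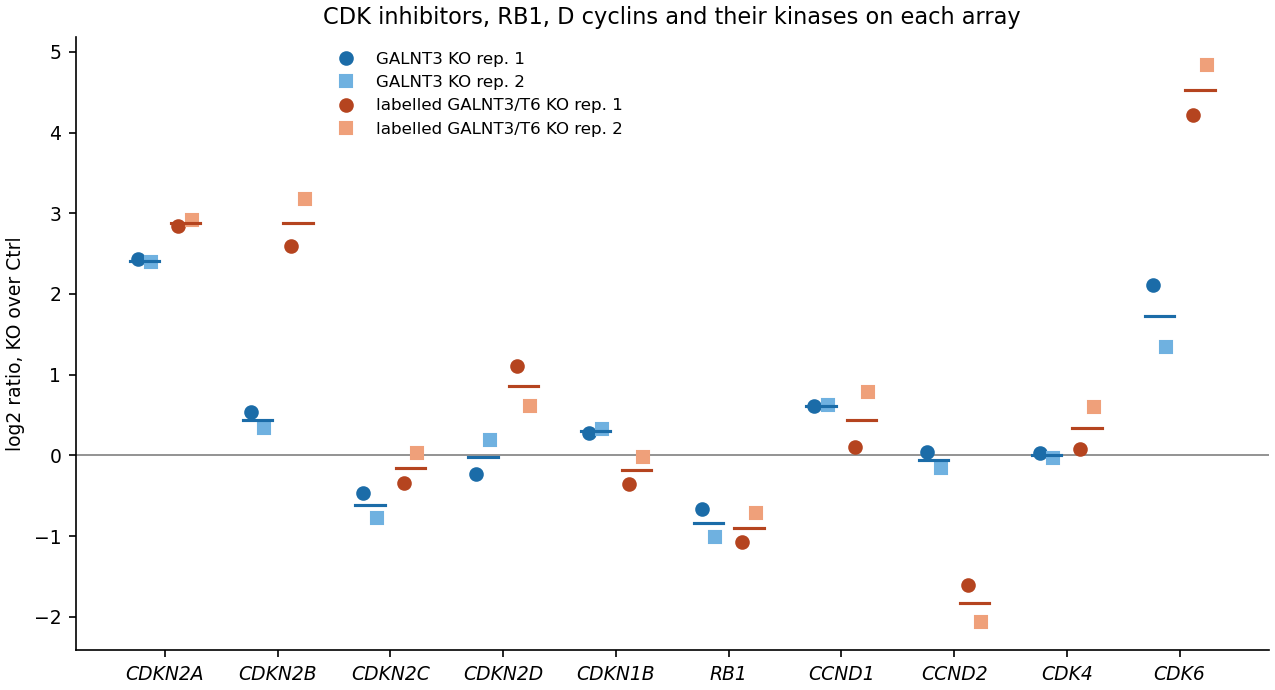
Log2 ratio of KO over Ctrl for each member gene on each of the 4 arrays (points) with the mean of each group of 2 (bars). CDKN2A lies between 2.39 and 2.92 on all 4 arrays, whereas CDKN2B, CDK6 and CCND2 are set apart between the groups.

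CDKN2B (p15), the INK4 inhibitor next to CDKN2A, behaved differently between the groups. It stood at 0.54 and 0.34 in GALNT3 KO and at 2.60 and 3.17 on the GALNT3/T6 KO-labelled arrays, without overlap. The mean of 0.44 in GALNT3 KO did not pass the test (95% interval 0.02 to 0.86, adjusted p = 0.132, limma), but with Agilent's log ratio it was 0.96 and called (adjusted p = 0.0465). On the GALNT3/T6 KO-labelled arrays the gene rose by 2.88 ± 0.16 (7.38-fold, adjusted p = 0.000398), and the groups differed by 2.44 ± 0.23 (adjusted p = 0.00317, limma). The other CDKN2B probe gave 0.41, 0.56, 1.48 and 1.76 on the 4 arrays in the same order, a smaller rise that was also called on the GALNT3/T6 KO-labelled arrays (adjusted p = 0.000516) and between the groups (adjusted p = 0.00751). CDKN2B was a dim gene in Ctrl, with log2 signals of 7.08 to 7.69.

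The other INK4 genes moved less. CDKN2C (p18) had ratios of -0.46 and -0.77 in GALNT3 KO and of -0.34 and 0.02 on the GALNT3/T6 KO-labelled arrays. It was not called in either group (adjusted p = 0.0552 and 0.378) or between them (difference 0.46, 95% interval -0.04 to 0.96). CDKN2D (p19) had -0.23 and 0.19 in GALNT3 KO and 1.11 and 0.61 on the GALNT3/T6 KO-labelled arrays. It rose there by 0.86 ± 0.17 (1.81-fold, adjusted p = 0.0147), a call that ended with Agilent's log ratio (0.58, adjusted p = 0.0727), and the difference between the groups of 0.88 missed the threshold (adjusted p = 0.0617, limma). CDKN1B had 0.28 and 0.33 in GALNT3 KO and -0.36 and -0.01 on the GALNT3/T6 KO-labelled arrays, with no call. Its other probe gave -0.45, -0.64, -0.65 and -0.60 and was called lower in both groups (adjusted p = 0.0354 and 0.00519), so that the direction of CDKN1B in GALNT3 KO depended on the probe.

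The kinase CDK6 had, at its brightest probe, the highest ratio of the members on the GALNT3/T6 KO-labelled arrays, whereas averaged over its probes it was at 2.57 and CDKN2A, averaged likewise, at 2.65. Its log2 ratio was 2.11 and 1.34 in GALNT3 KO and 4.21 and 4.84 on the GALNT3/T6 KO-labelled arrays. The rise was 1.73 ± 0.24 (3.31-fold, adjusted p = 0.0306) in GALNT3 KO and 4.53 ± 0.24 (23.1-fold, adjusted p = 0.000362) on the GALNT3/T6 KO-labelled arrays, and the groups differed by 2.80 ± 0.34 (adjusted p = 0.00678, limma). These values are those of the probe at the 3′ side. The probe that crosses the intron gave -0.05 and -0.07 in GALNT3 KO, with no call, and 0.36 and 0.87 on the GALNT3/T6 KO-labelled arrays (adjusted p = 0.0216). The probes thus differed by 1.41 to 3.97 on an array, and with their mean the call in GALNT3 KO was lost (0.83, adjusted p = 0.0515). The Ctrl signal at the 3′ probe was 7.78 and 7.66 on the GALNT3 KO arrays and 8.14 and 8.29 on the others. At the probe that crosses the intron it was 7.29 and 7.80 on the former and 7.79 and 7.47 on the latter. CDK4, the partner kinase, was a bright gene with ratios of 0.03 and -0.03 in GALNT3 KO and 0.08 and 0.60 on the GALNT3/T6 KO-labelled arrays, and was not called (95% interval -0.38 to 0.38 and -0.04 to 0.72).

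**Figure D2:**
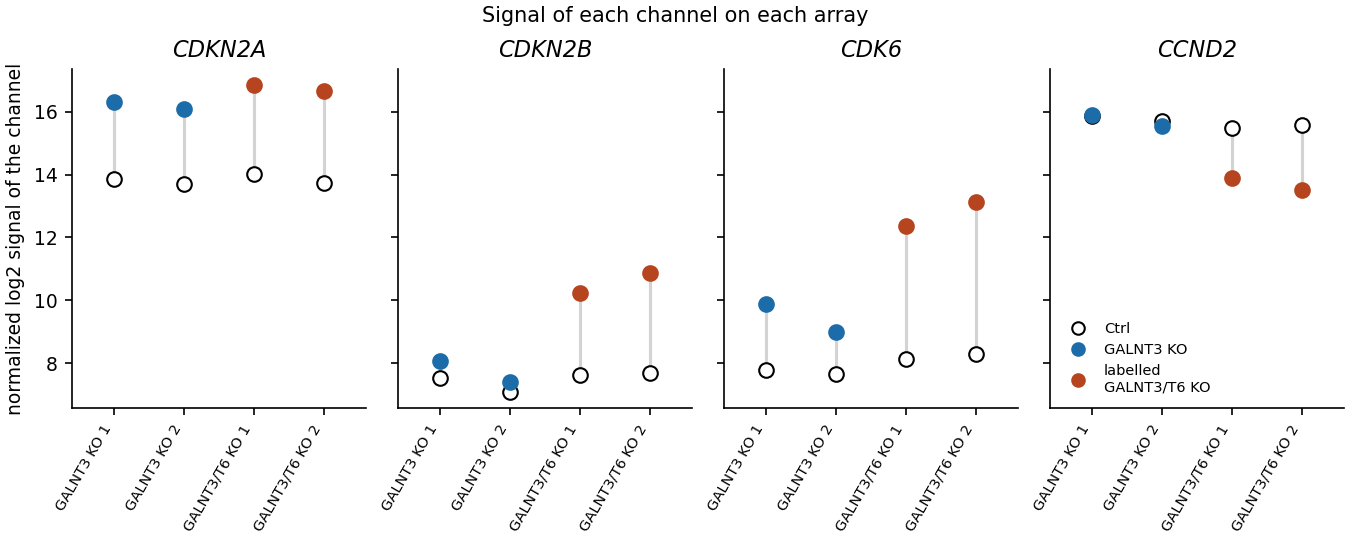
Normalized log2 signal of the Ctrl channel (open circles) and the KO channel (filled circles) on each array for CDKN2A, CDKN2B, CDK6 and CCND2, brightest probe. The Ctrl of CDKN2A lies between 13.69 and 14.01, that of CDKN2B between 7.08 and 7.69, and CCND2 is the only 1 of the 4 whose KO channel lies below Ctrl on the GALNT3/T6 KO-labelled arrays.

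Of the D cyclins, CCND2 fell on the GALNT3/T6 KO-labelled arrays at each of its probes. At the brightest, the ratio was 0.04 and -0.16 in GALNT3 KO and -1.60 and -2.07 on the GALNT3/T6 KO-labelled arrays, which is a fall of 3.57-fold (mean -1.83 ± 0.14, adjusted p = 0.000932). The groups did not overlap and differed by -1.77 ± 0.20 (adjusted p = 0.00535, limma). The middle probe gave -0.03, -0.52, -5.46 and -5.77 on the 4 arrays and the upstream probe 0.07, -0.06, -4.22 and -4.33. In Ctrl the middle probe read 15.57, 15.985, 15.90 and 15.99, against 15.86, 15.69, 15.485 and 15.57 at the probe used for the gene. All 3 probes were called lower on the GALNT3/T6 KO-labelled arrays and between the groups, and none in GALNT3 KO (adjusted p = 0.265, 0.776 and 0.973), but the size of the fall differed between probes by 3.86 and 3.70. CCND1 had 0.61 and 0.62 in GALNT3 KO and 0.11 and 0.78 on the GALNT3/T6 KO-labelled arrays. It passed the threshold in neither group (adjusted p = 0.0847 and 0.0945), and its 3 probes did not share a direction on the GALNT3/T6 KO-labelled arrays, where A_24_P193011 gave -0.92 and -0.38 (adjusted p = 0.0253) and A_24_P124550 gave 0.18 and 0.70 (adjusted p = 0.151).

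RB1, the pocket protein that CDK4 and CDK6 phosphorylate, had ratios of -0.66 and -1.02 in GALNT3 KO and -1.07 and -0.72 on the GALNT3/T6 KO-labelled arrays. All 4 clones were below Ctrl and the groups overlapped. The fall was 1.79-fold (mean -0.84 ± 0.14, adjusted p = 0.0378) in GALNT3 KO and 1.86-fold (-0.90 ± 0.14, adjusted p = 0.00744) on the GALNT3/T6 KO-labelled arrays, with a difference of -0.06 (95% interval -0.58 to 0.46). The call in GALNT3 KO ended with Agilent's log ratio (-0.79, adjusted p = 0.0766), with the mean of all probes (-0.365, adjusted p = 0.0637) and with the replicate block (adjusted p = 0.109). A fall was seen only at the 3′ probe, which is printed 10 times on an array. The other probe, 118863 bases upstream, gave -0.03 and 0.25 in GALNT3 KO and 0.14 and 0.20 on the others, with no call in either group (adjusted p = 0.482 and 0.236, limma).

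Of the 9 members other than CDKN2A, 1 was called higher (CDK6) and 1 lower (RB1) in GALNT3 KO, where 11.0% of all genes were called. Without GALNT3 KO replicate 1, CDK6 stood at 1.343 and RB1 at -1.017, and without replicate 2 they stood at 2.113 and -0.661. Both calls were lost in these fits, which take the spread from the GALNT3/T6 KO-labelled arrays alone. With the spread taken from the GALNT3 KO arrays alone, which leaves out the arrays whose GALNT3 goes against the label, 6 of the 9 were called (CCND1, CDK6, CDKN1B and CDKN2B higher, CDKN2C and RB1 lower), beside 34.7% of all genes. On the GALNT3/T6 KO-labelled arrays 3 were called higher (CDKN2B, CDKN2D and CDK6) and 2 lower (RB1 and CCND2), where 47.8% of all genes were called. With Agilent's log ratio 2 were higher and 4 lower there, as CDKN1B and CDKN2C were called lower and CDKN2D was not called. Between the groups 2 were higher on the GALNT3/T6 KO-labelled arrays (CDKN2B and CDK6) and 1 lower (CCND2), where 23.7% of all genes were called. With 1 array left out, the spread of this difference comes from the other group alone. The calls were lost without either GALNT3 KO array, and more members were called without either GALNT3/T6 KO-labelled array. By the threshold in the methods (p at most 0.05 and 1.5-fold), the counts were 4, 5 and 4, where 9.60%, 31.8% and 26.9% of all genes passed. The arrays of the groups did not overlap for 8 of the 10 members, CDKN2A included, against 61.0% of all genes. Both arrays of a group lay on 1 side of 0 for 7 of the 10 in GALNT3 KO (5 above, 2 below) and for 9 on the others (6 above, 3 below), against 81.1% and 84.6% of all genes. CDKN2A is among those above 0 in both groups, and its place there was fixed by the choice of the set. Taken probe by probe, 1 of the 17 probes of the 9 genes was called higher and 2 lower in GALNT3 KO (11.5% of all probes called), 5 and 6 on the GALNT3/T6 KO-labelled arrays (48.9%), and 3 and 3 between the groups (25.3%). When a gene counted as called only where every probe of it was called in 1 direction, 0 of 9 remained in GALNT3 KO, 4 on the GALNT3/T6 KO-labelled arrays (CDKN2B, CDKN2D, CDK6 and CCND2) and 2 between the groups (CDKN2B and CCND2). CDKN2D has only 1 probe, so that this rule adds no check for it.

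The genes with ratios most like those of CDKN2A, by Euclidean distance over the 4 arrays among 27184 genes with a value on each, were CDH2 (N-cadherin), TCEAL7, NRG1 (neuregulin), PRTFDC1 and RBMS3, at distances of 0.709 to 1.36 log2 units. CDH2 had 2.89 and 2.18 in GALNT3 KO and 2.40 and 2.69 on the GALNT3/T6 KO-labelled arrays. NRG1 had 2.03, 1.65, 2.61 and 3.09 in the same order. CDKN2B was farther away, at 2.81, and CDK6 at 2.60.

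For the lists of genes that follow, the share of all genes called was 4.69% higher and 6.35% lower in GALNT3 KO and 24.8% higher and 23.1% lower on the GALNT3/T6 KO-labelled arrays. The other genes around CDKN2A and CDKN2B on chromosome 9 moved in both directions. None of the 5 measured neighbours was called in GALNT3 KO, where their median was 0.19. On the GALNT3/T6 KO-labelled arrays the median was 0.41, against 0.03 for all genes. There DMRTA1, a transcription factor gene on the CDKN2B side, rose by 1.51 (ratios 1.41 and 1.60, adjusted p = 0.000502), and ELAVL2 and the interferon gene IFNE rose by 0.41 each (adjusted p = 0.0175 and 0.0144). KLHL9 fell by 1.73 (adjusted p = 0.00111), and MTAP, the enzyme gene that borders CDKN2A, had 0.18 and 0.53 with no call (adjusted p = 0.0575, limma). The antisense RNA of CDKN2B has no probe under the names searched.

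The promoters of CDKN2A and CDKN2B are shown because these genes, side by side on chromosome 9, both rose on the GALNT3/T6 KO-labelled arrays. Their means there were 2.88 each at the brightest probes, but 2.425 and 1.62 at the other probes. In GALNT3 KO the means at the brightest probes were 2.41 and 0.44. The 100 bases before each start are from RefSeq on GRCh38.p14, a build other than that of the probes, 5′ to 3′ on the strand of the gene, with CG dinucleotides, the sites of DNA methylation, in capitals.
CDKN2A, start on the ARF side, chr9:21995325-21995424 (-): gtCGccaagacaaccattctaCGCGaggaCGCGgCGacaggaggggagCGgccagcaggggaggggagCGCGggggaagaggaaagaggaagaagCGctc
CDKN2A, start on the p16 side, chr9:21974858-21974957 (-): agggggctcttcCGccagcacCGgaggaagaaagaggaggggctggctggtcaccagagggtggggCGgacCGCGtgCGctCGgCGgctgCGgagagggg
CDKN2B, chr9:22009306-22009405 (-): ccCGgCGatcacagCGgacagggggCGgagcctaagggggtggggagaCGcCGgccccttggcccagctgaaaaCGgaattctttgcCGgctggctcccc

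In the 250 bases before the start, these promoters held 24, 20 and 18 CG, against a median of 11 over 35116 promoters. Fewer CG were held by 76.3%, 67.6% and 63.2% of all promoters. RefSeq promoters matched 8 of the 10 members, in 12 windows of 300 bases. The E2F letters TTTCCCGC, TTTGGCGC and TTTCGCGC were searched on both strands, and 0 of the 12 windows held any of them, as against 2.7% of all promoters. That says only that these letters are not in these windows.

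Of 14 reported regulators of the INK4 locus, 1 was called higher and 2 lower in GALNT3 KO, and 2 higher and 8 lower on the GALNT3/T6 KO-labelled arrays. The medians were -0.07 and -0.58, against 0.02 and 0.03 for all genes, and with Agilent's log ratio the former was 0.02. The T-box gene TBX2 fell by 3.87 on the GALNT3/T6 KO-labelled arrays (ratios -3.93 and -3.80, adjusted p = 0.000113), after -0.19 and -0.57 in GALNT3 KO with no call. Its relative TBX3 rose by 2.01 there (1.76 and 2.26, adjusted p = 0.000701) and ETS2 by 2.12 (1.64 and 2.60, adjusted p = 0.00284). ID1 fell by 1.67 (-2.38 and -0.96, adjusted p = 0.0169). Whether any of these shifts bears on CDKN2A was not tested. The genes called in GALNT3 KO were EZH2 (-1.18), CBX7 (-0.85) and CBX8 (0.44), at adjusted p = 0.0228, 0.0243 and 0.0425 (limma). On the GALNT3/T6 KO-labelled arrays EZH2 (-0.85) and CBX7 (-1.05) were also called lower (adjusted p = 0.00724 and 0.00173, limma). CBX8 was not called there (-0.18).

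Of the other CDK inhibitors 2 of 3, and of the other pocket proteins 1 of 2, were called between the groups, each higher on the GALNT3/T6 KO-labelled arrays. In that comparison 11.8% of all genes were called higher. CDKN1C (p57) had -1.73 and -0.98 in GALNT3 KO, a called fall (mean -1.35, adjusted p = 0.0426), and 2.86 and 3.55 on the GALNT3/T6 KO-labelled arrays, a called rise (mean 3.20, adjusted p = 0.000932). The difference of 4.56 was called as well (adjusted p = 0.00188, limma). CDKN3, a phosphatase that acts on CDK2, rose by 1.91 on the GALNT3/T6 KO-labelled arrays (2.32 and 1.5, adjusted p = 0.0029), and CDKN1A (p21), the p53 target, by 0.47 (0.23 and 0.70, adjusted p = 0.0439), both without a call in GALNT3 KO, and CDKN1A without one between the groups (0.18, adjusted p = 0.608). RBL2 (p130) fell by 0.69 in GALNT3 KO (adjusted p = 0.0268) and was not called on the other arrays (-0.31 and -0.14). RBL1 (p107) had -0.60 and -0.90 in GALNT3 KO and 0.18 and 0.78 on the GALNT3/T6 KO-labelled arrays, called only between the groups (1.23, adjusted p = 0.0266).

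Of the 7 other G1 cyclins and CDKs, 0 were higher and 2 lower in GALNT3 KO (median -0.37), and 2 were higher and 3 lower on the GALNT3/T6 KO-labelled arrays (median -0.14). The E cyclins, which activate CDK2 after the D cyclins, moved against each other on the latter. There CCNE1 fell by 1.59 (-1.77 and -1.41, adjusted p = 0.00105) and CCNE2 rose by 1.26 (1.15 and 1.37, adjusted p = 0.00121), whereas in GALNT3 KO CCNE2 fell by 0.60 (adjusted p = 0.041). CCNA1 rose by 3.50 on the GALNT3/T6 KO-labelled arrays (3.30 and 3.70, adjusted p = 0.000151), and CCNA2, the S phase cyclin, fell by 0.67 (adjusted p = 0.011, limma).

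Among 10 genes of CDK activation and inhibitor turnover, of which FBXO31 lacked a value on GALNT3 KO replicate 1, 0 were higher and 1 was lower in GALNT3 KO (median -0.31), and 3 were higher and 6 lower on the GALNT3/T6 KO-labelled arrays (median -0.50). The CDK-activating kinase did not move as a unit. Its assembly factor MNAT1 fell in both groups, by 1.01 in GALNT3 KO (adjusted p = 0.019) and by 1.66 on the GALNT3/T6 KO-labelled arrays (adjusted p = 0.000481), while its kinase CDK7 rose on the latter by 1.23 (1.38 and 1.08, adjusted p = 0.00127). FBXW7, which targets cyclin E for degradation, fell there by 1.52 (adjusted p = 0.00109), and the ligase scaffold CUL4A by 1.33 (adjusted p = 0.000564).

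Of the mitogen-driven inducers of D cyclins, 1 of 8 was higher and 0 were lower in GALNT3 KO (median 0.10), and 2 were higher and 5 lower on the GALNT3/T6 KO-labelled arrays (median -0.87). EGR1, an immediate early factor, turned its direction. It rose in GALNT3 KO (2.37 and 2.25, mean 2.31, adjusted p = 0.00867) and fell on the GALNT3/T6 KO-labelled arrays (-2.95 and -2.48, mean -2.72, adjusted p = 0.000322), with a called difference of -5.03 (adjusted p = 0.000463). JUN rose there by 4.25 (4.32 and 4.18, adjusted p = 9.24e-05), FOSL1 by 1.32 (adjusted p = 0.00558), and MYC fell by 1.59 (-1.63 and -1.54, adjusted p = 0.000987), each without a call in GALNT3 KO. In the ARF, MDM2 and p53 list 0 of 5 genes were called in GALNT3 KO by limma. On the GALNT3/T6 KO-labelled arrays 0 were higher and 2 lower, the p53 inhibitor MDM4 (-1.27 and -1.69, adjusted p = 0.00127) and the ARF partner NPM1 (-0.80 and -0.57, adjusted p = 0.00514).

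**Figure D3:**
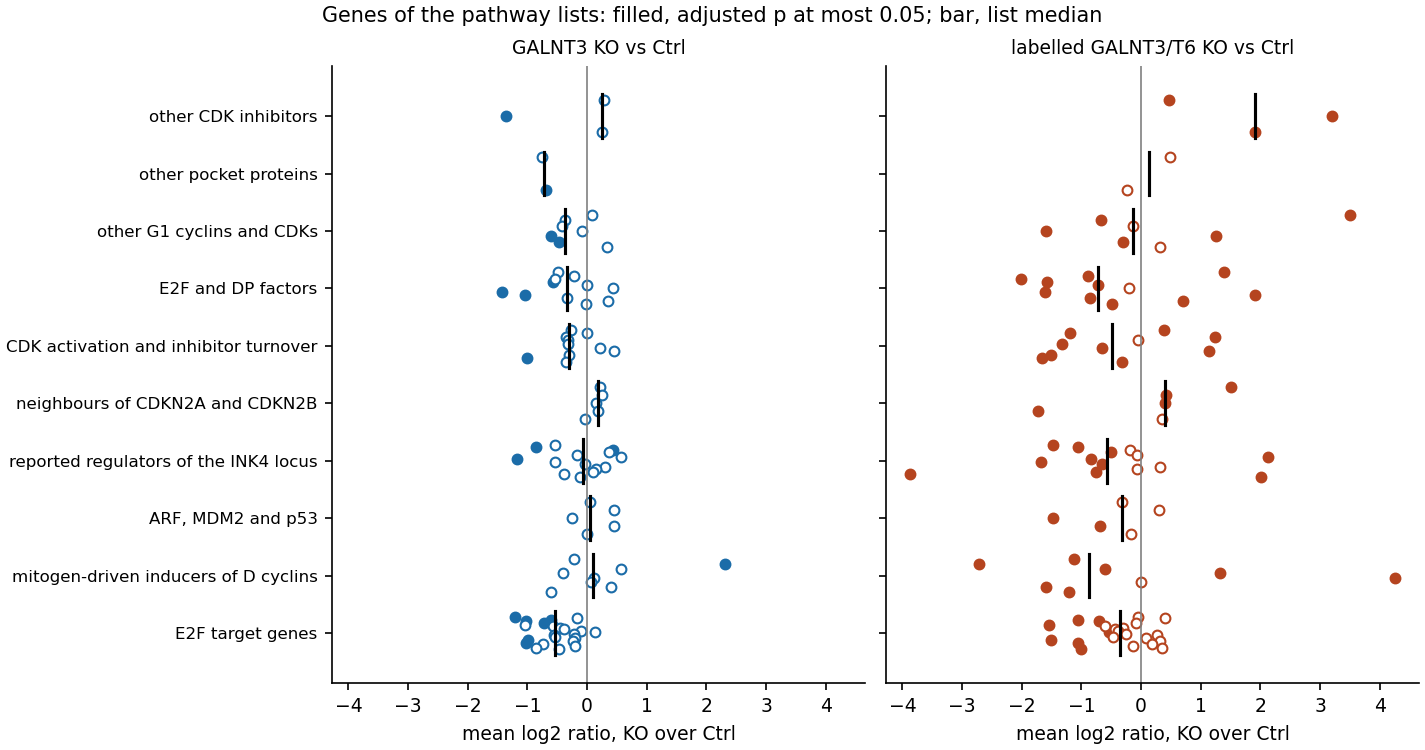
Mean log2 ratio of KO over Ctrl for each of the 87 genes of the 10 pathway lists in GALNT3 KO (left) and on the GALNT3/T6 KO-labelled arrays (right). Filled points passed an adjusted p of 0.05 in limma and bars mark list medians. On the left 2 genes were higher and 16 lower, where 4.69% and 6.35% of all genes were called. On the right 18 were higher and 39 lower, where 24.8% and 23.1% of all genes were called. The lists were chosen with earlier results of these data known.

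E2F and DP factors, which RB1 and its relatives hold in check, were also split. Of 11 genes, 0 were higher and 3 lower in GALNT3 KO (median -0.34), and 3 were higher and 7 lower on the GALNT3/T6 KO-labelled arrays (median -0.72). E2F3, an activator, fell by 2.01 on the GALNT3/T6 KO-labelled arrays (-2.05 and -1.97, adjusted p = 0.000633), and E2F4, which pairs with the pocket proteins in resting cells, fell in both groups, by 0.57 (adjusted p = 0.032) and 1.58 (adjusted p = 0.000348). The repressor E2F7 fell in both groups too, with means of -1.43 (adjusted p = 0.0434) and -1.61 (adjusted p = 0.00848). Its relative E2F8 fell by 1.03 in GALNT3 KO (-0.86 and -1.20, adjusted p = 0.0237) and rose by 1.91 on the GALNT3/T6 KO-labelled arrays (1.80 and 2.01, adjusted p = 0.000538).

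The E2F target genes, which serve DNA replication and mitosis, were called in 1 direction only against Ctrl. Of 22 tested, 0 were higher and 6 lower in GALNT3 KO, where 4.69% of all genes were called higher and 6.35% lower. On the GALNT3/T6 KO-labelled arrays 0 were higher and 7 lower, where 24.8% and 23.1% of all genes were called. ORC1 of the origin recognition complex fell in both groups, by 0.99 (adjusted p = 0.0467) and 1.51 (adjusted p = 0.00398), and CDC45 of the replicative helicase by 0.61 (adjusted p = 0.0384) and 1.07 (adjusted p = 0.00181). CDT1, the licensing factor, fell on the GALNT3/T6 KO-labelled arrays (-2.0 and -1.07, mean -1.54, adjusted p = 0.00653), and the spindle checkpoint kinase BUB1 fell in GALNT3 KO (-1.11 and -1.31, mean -1.21, adjusted p = 0.0237) and not on the other arrays (-0.29 and 0.17).

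The GALNT3/T6 KO-labelled arrays differed from each other in these targets. The number of the 22 genes below 0 was 21 and 21 on the GALNT3 KO arrays, 20 on GALNT3/T6 KO replicate 1 and 10 on GALNT3/T6 KO replicate 2. The medians were -0.47, -0.59, -0.83 and 0.16. The helicase genes MCM2 to MCM7, looked at apart after their values were seen, lay between -1.16 and -0.47 on GALNT3/T6 KO replicate 1 and between -0.26 and 0.99 on GALNT3/T6 KO replicate 2, with 6 of 6 and 1 of 6 below 0. A difference between 2 clones has no replicate and was not tested.

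**Figure D4:**
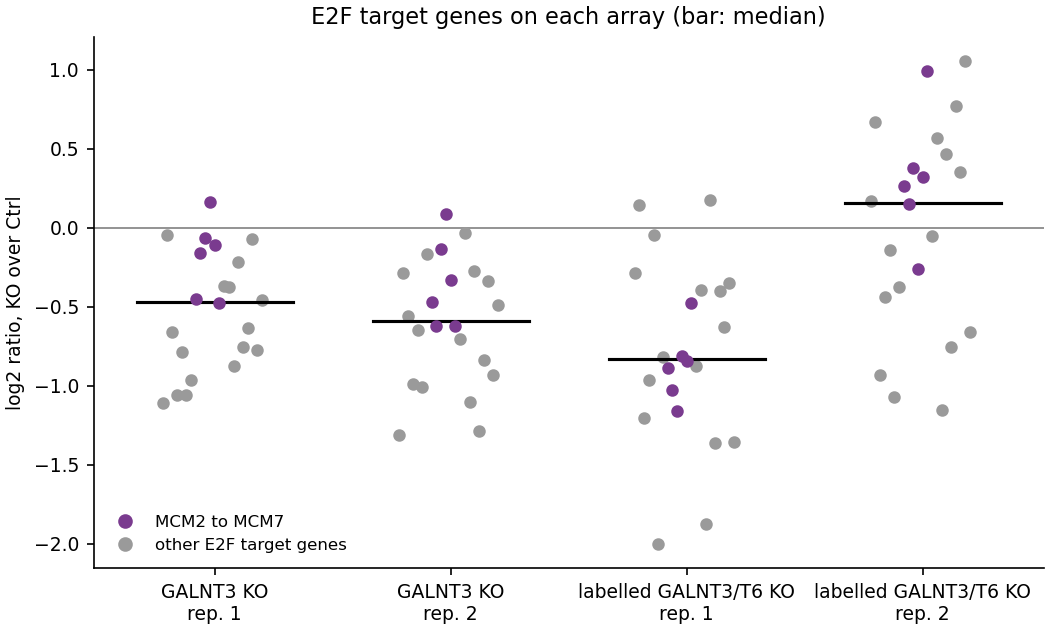
Log2 ratio of KO over Ctrl for the 22 E2F target genes on each array, with MCM2 to MCM7 in purple and the median as a bar. On GALNT3/T6 KO replicate 1 the median is -0.83 and on replicate 2 it is 0.16, with -0.47 and -0.59 on the GALNT3 KO arrays.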

How the data were processed

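Total RNA of 4 KO clones was hybridized against Ctrl RNA on 2-colour arrays. The authors extracted spot intensities with Agilent Feature Extraction, version 8.5.1.1 in the submitters' processing notes and 10.7.3.1 in the file header. The deposited log10 ratios are those of the same software, already background-subtracted and dye-normalized, and the deposited value table differed from them by at most 0.005. Starting from the mean and background intensities, normexp (offset 50) removed the background, loess was run on each array with control spots at weight 0, outlier spots were dropped and spots of a probe averaged (limma 3.58.1 in R 4.3.3). Probes had to be well above background in a channel on both arrays of 1 of the groups, and the brightest of these stood for the gene, leaving 38195 probes and 27223 genes, with 38 values missing. Signals of single channels were set between arrays with Aquantile.

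limma fitted all 4 arrays with a mean per group, tested each mean against 0 and the difference between the groups, and adjusted p-values over all genes (Benjamini-Hochberg). Standard errors follow ±, and intervals are at 95%. The fit was tested on simulated data. Deviations of same-numbered arrays correlated at -0.239, and the main fit did not pair arrays by replicate number. With 2 arrays a group this value cannot exclude a pairing. Which GALNT3 KO clone each double KO clone came from is not stated. The members and all gene lists were chosen with earlier results of these data known, so no count over a list is independent support. From each list at most 4 genes are named, those called with the widest ratio in either group, and lists of up to 3 genes and the neighbours of CDKN2A are given in full. For the INK4 regulators, the genes called in GALNT3 KO are named as well. Alternatives were no background correction, Agilent's log ratio, the deposited table, median centring, the mean of all probes, no filter on dim probes, each array left out, a replicate block, the arrays of a group alone, and the methods' threshold. Precision is limited by 2 arrays a group. The sequence of the dimmer CDKN2B probe is not reported here.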

Additional observations from a re-analysis of the deposited data

Results flagged for a closer look

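In 3 members the ratio against Ctrl differed between the groups by the test of the difference itself (limma, adjusted p over all genes, where 23.7% of genes were called). The log2 difference, GALNT3/T6 KO-labelled arrays minus GALNT3 KO, was 2.44 for CDKN2B, -1.77 for CCND2 and 2.80 for CDK6. The arrays of the groups did not overlap in any of the 3. For CDKN2B and CCND2 every probe was called in 1 direction, and for CDK6 the probe that crosses an intron gave no call (adjusted p = 0.0718). All 3 calls were lost in limma without GALNT3 KO replicate 1 or replicate 2, with the direction kept. The spread then came from the GALNT3/T6 KO-labelled arrays alone.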

How the results depend on the processing

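In GALNT3 KO, where 2 of 9 members were called, the count was 1 with the deposited value table, 0 with the mean of all probes (5 at an unadjusted p under 0.05, limma), 0 with the replicate block (4 unadjusted), 6 with the arrays of the group alone, 4 by the methods' threshold of p at most 0.05 and 1.5-fold, and 0 with every probe required (2 unadjusted). Leaving out 1 array takes the spread from the other group alone, so that these counts do not show the weight of that array. The calls were lost without either GALNT3 KO array, and more members were called without either GALNT3/T6 KO-labelled array. On the GALNT3/T6 KO-labelled arrays the count was 5 and ran from 4 to 7 over the alternatives, 5 to 7 with 1 array left out, but its 3 higher and 2 lower became 2 higher and 4 lower with Agilent's log ratio and the deposited table, where CDKN1B and CDKN2C were gained and CDKN2D was lost. Between the groups it was 3, was 2 with every probe required, and ran from 0 to 6 with 1 array left out. With the replicate block it was 5 on the GALNT3/T6 KO-labelled arrays and 3 between the groups. By the labels the samples share only a number, and whether they share a parent clone is not stated. The crossed pairing and the rule on every probe were chosen after seeing the data, and crossing gave 3, 5 and 4 calls. For the difference, the arrays of the groups compared are all 4, so that this alternative is the analysis itself.

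Among the members, directions turned where the ratio was small. With the mean of all probes CDKN1B in GALNT3 KO became -0.123 and the RB1 difference 0.00, and with median centring CDK4 in GALNT3 KO became -0.048. With 1 array left out, the ratio in GALNT3 KO ran from -0.235 to 0.186 for CDKN2D, from -0.16 to 0.038 for CCND2 and from -0.028 to 0.028 for CDK4, that of CDKN2C on the GALNT3/T6 KO-labelled arrays from -0.337 to 0.024, and the difference between the groups from -0.235 to 0.121 for RB1 and from -0.508 to 0.165 for CCND1. The cause was not tested. CDKN2A stayed between 2.19 and 2.43 in GALNT3 KO and between 2.56 and 2.98 on the other arrays. Over the alternatives, adjusted p on the GALNT3/T6 KO-labelled arrays reached at most 0.0101 for CDKN2B, 0.0142 for CCND2, 0.00732 for CDK6 and 0.0317 for RB1. Of 300 list medians recomputed under the alternatives, 64 moved by more than the spread between arrays and 14 changed sign, such as that of the INK4 regulators in GALNT3 KO (-0.07, and 0.018 with Agilent's log ratio). The 2 arrays a group limit the precision.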
